A study of Mus musculus with 6 samples.

Results

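C-type lectin receptors are membrane proteins of myeloid cells that share a lectin fold and read carbohydrate, lipid or protein patterns on microbes and damaged cells. The 9 genes described here (Cd207, Cd209c, Mrc1, Clec4e, Clec4d, Clec4n, Clec7a, Clec10a and Clec12a) were found by gene symbol among the 24054 symbols of the deposited tables, and all 9 passed the filter on low counts. The study sequenced RNA of macrophages grown from mouse bone marrow, in 6 libraries. Cells of C57BL/6 mice labelled as a Kindlin3-integrin mutant and given oxidised low-density lipoprotein (oxLDL) gave 2 libraries, and untreated cells of the same mutant gave 2. Wild-type C57BL/6 cells gave 1 library with oxLDL and 1 without. All cells had grown for 7 days in L929-conditioned medium, and oxLDL was given at 50 µg/ml for 24 hours. Kindlin-3, the product of Fermt3, is a cytoplasmic protein of blood cells that binds integrin tails and helps to activate integrins. The labels state neither the exact allele nor whether the libraries came from separate animals, so p-values measure the spread between these libraries, which may be technical.

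Some receptors of the family, such as the mannose receptor Mrc1, mainly take up what they bind. Others pass a signal. Clec4n, Clec4d and Clec4e work with the adaptor chain Fcer1g, Clec7a carries a signalling motif of its own, and these routes lead through the kinase Syk and the adaptor Card9 to NF-kB. Clec12a carries an inhibitory motif that recruits phosphatases such as Ptpn6. In macrophages the family is best known for recognising fungi, mycobacteria and dying cells.

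Total expected counts ranged from 11281692 to 24273551 per library, and levels are given as CPM, read counts scaled to a common effective library size with TMM factors. Fermt3 had 146 and 153 CPM in mutant oxLDL cells, 241 and 249 CPM in untreated mutant cells, 188 CPM in wild-type oxLDL cells and 403 CPM in untreated wild-type cells. Its log2 difference, mutant over wild type, was -0.72 ± 0.11 in untreated cells (SE; adjusted p = 0.0264, edgeR quasi-likelihood test) and -0.53 ± 0.11 across treatments (adjusted p = 0.0517), and it fell with oxLDL across genotypes (-0.84 ± 0.10, adjusted p = 0.00147). All 9 macrophage markers were present in every library, with sums of 10187 to 19466 CPM in the 3 oxLDL libraries and 20639 to 30449 CPM in the 3 untreated ones. With oxLDL across genotypes 5 of the 9 fell, among them Fcgr1 (log2 -3.27 ± 0.18), Emr1 (-2.45 ± 0.12) and Itgam (-2.03 ± 0.26). Another 2 rose, Cd68 (0.89 ± 0.16) and Mertk (0.81 ± 0.16), and the median was -1.20. Lyz2, the largest part of the wild-type sums at 5686 CPM with oxLDL and 8900 CPM untreated, did not pass. Of all tested genes 19.1% rose and 21.4% fell in this comparison. The part of these changes in the receptor values was not tested. Langerhans cell markers other than Cd207 itself summed to at most 3.22 CPM. The 12 dendritic cell markers summed to between 151 and 209.8 CPM. Among them Irf8 had 154 CPM in wild-type oxLDL cells and 135 CPM in untreated wild-type cells, while Flt3 was at 0 counts in 5 of 6 libraries. The 12 pancreas genes summed to 174 and 138 CPM in mutant cells with oxLDL and to 235 CPM in untreated wild-type cells, against at most 0.0708 CPM in the other libraries. Neutrophil markers summed to 45.2 CPM in the untreated wild-type library and to between 5.18 and 7.36 CPM in the other 5. In bulk RNA, fewer cells of a type and less RNA per cell cannot be told apart.

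Levels of different genes were compared per kilobase of the longest coding transcript. Averaged over the 6 libraries, the order in CPM per kilobase was Clec4d (495), Clec12a (196), Clec4n (95.0), Mrc1 (64.6), Clec7a (20.4), Clec4e (17.1), Cd209c (13.0), Cd207 (4.03) and Clec10a (0.593). Of the 8 pairs of neighbours in that order, Mrc1 and Clec7a alone had ranges over the libraries that did not overlap, at 37.9 to 83.3 against 10.9 to 35.8 CPM per kilobase. The order also changed with the condition, since Clec12a had 368 and Clec4d 198 CPM per kilobase in untreated wild-type cells, against 71.3 and 952 in wild-type oxLDL cells.

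**Figure D1:**
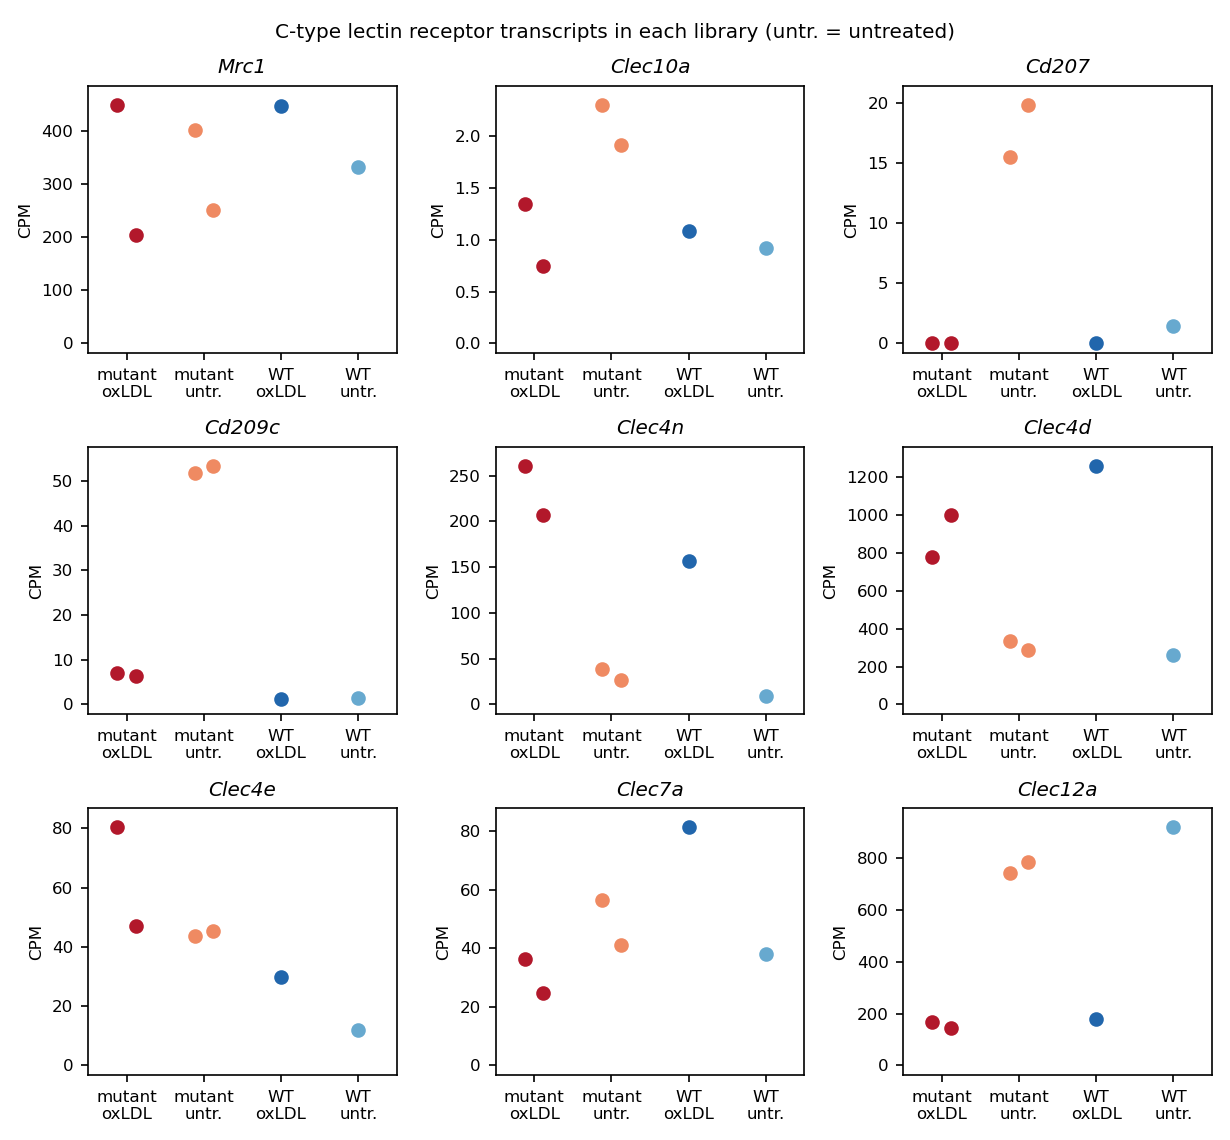
Level of each of the 9 receptor transcripts in CPM (linear axis from 0, own scale per gene), 1 point per library, for mutant oxLDL (2), untreated mutant (2), wild-type oxLDL (1) and untreated wild-type (1) cells. Clec4d and Clec4n were higher in all 3 oxLDL libraries than in all 3 untreated libraries, Cd207 and Clec12a were lower, and Cd209c reached 51.8 and 53.4 CPM in untreated mutant cells only.

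In the plot of levels by library, Mrc1, Clec7a and Clec10a overlapped both between oxLDL and untreated libraries and between genotypes. The other 6 members separated the libraries by at least 1 of the 2 conditions. These were Cd207, Clec4n, Clec4d and Clec12a by treatment, and Cd209c and Clec4e by genotype. Of all tested genes, 24.5% lay above and 23.3% below with oxLDL without overlap. In the mutant 8.49% lay above and 7.78% below wild type without overlap.

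Promoter windows are shown so that the start regions of the members with called differences can be read beside their levels. RefSeq, on build GRCm38.p6, gave windows of 300 bases (250 before and 50 after the annotated start) for 7 of the 9 members, without Clec4n and Clec10a. The 5 windows below run 5′ to 3′ on the strand of the gene, and capitals mark motif matches. They lie at chr6:83677808-83678107 (minus strand) for Cd207, chr8:3946814-3947113 (minus strand) for Cd209c, chr6:123261857-123262156 (plus strand) for Clec4d, chr6:123289822-123290121 (minus strand) for Clec4e and chr6:129349994-129350293 (plus strand) for Clec12a.
Cd207: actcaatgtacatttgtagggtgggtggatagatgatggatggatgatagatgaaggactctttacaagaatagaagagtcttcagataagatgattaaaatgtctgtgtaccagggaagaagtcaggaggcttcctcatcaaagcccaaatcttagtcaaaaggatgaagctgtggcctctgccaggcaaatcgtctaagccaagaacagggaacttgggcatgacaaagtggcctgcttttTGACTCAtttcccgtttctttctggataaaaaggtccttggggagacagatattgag
Cd209c: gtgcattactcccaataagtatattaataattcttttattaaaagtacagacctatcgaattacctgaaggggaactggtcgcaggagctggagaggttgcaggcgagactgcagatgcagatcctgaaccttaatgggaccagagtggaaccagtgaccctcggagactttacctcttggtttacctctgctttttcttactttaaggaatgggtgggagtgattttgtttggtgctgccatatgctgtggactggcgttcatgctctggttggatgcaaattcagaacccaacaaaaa
Clec4d: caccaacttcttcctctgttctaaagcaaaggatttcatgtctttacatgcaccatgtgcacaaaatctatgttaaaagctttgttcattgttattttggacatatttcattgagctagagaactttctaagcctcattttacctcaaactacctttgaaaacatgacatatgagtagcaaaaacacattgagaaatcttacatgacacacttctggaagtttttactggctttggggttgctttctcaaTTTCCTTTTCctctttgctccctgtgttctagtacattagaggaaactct
Clec4e: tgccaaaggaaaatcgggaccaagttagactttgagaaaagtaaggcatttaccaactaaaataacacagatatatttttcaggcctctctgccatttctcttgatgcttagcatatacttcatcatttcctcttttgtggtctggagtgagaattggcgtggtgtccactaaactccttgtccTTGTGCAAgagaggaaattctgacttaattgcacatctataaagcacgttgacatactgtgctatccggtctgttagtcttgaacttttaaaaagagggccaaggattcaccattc
Clec12a: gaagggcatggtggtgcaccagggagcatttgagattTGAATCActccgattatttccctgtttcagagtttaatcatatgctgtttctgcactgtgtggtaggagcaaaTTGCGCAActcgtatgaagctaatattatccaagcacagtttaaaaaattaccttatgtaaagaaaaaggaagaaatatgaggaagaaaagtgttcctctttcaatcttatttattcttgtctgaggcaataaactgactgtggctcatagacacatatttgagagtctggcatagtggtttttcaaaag
In Cd207 and Clec12a the capitals hold the AP-1 motif TGANTCA, found in 7.93% of all 27025 promoter windows. Clec12a and Clec4e held the C/EBP-type motif TTGCNNAA, in Clec4e in reverse orientation, found in 10.8% of windows. Clec4d held the interferon-stimulated response element (GAAA, any 2 bases, GAAA) in reverse orientation, found in 3.49% of windows. The remaining 3 motifs matched none of the 7 member windows, namely the antioxidant response element TGACNNNGC (12.5% of windows), the PU.1 site GAGGAAGT (3.28%) and the C/EBP-ATF composite TGATGNAA (4.06%). Both strands were searched, no matches overlapped, and the window of Cd209c held none of the 6 motifs.

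The first comparison asks which receptors differed in macrophages given oxLDL. In mutant cells 5 of the 9 genes passed the test: Clec4d and Clec4n rose, and Cd207, Cd209c and Clec12a fell. Across all tested genes 35.6% passed in this comparison, 16.5% higher and 19.1% lower. With both genotypes in an additive model, 6 of 9 passed, 3 higher (Clec4d, Clec4n and Clec4e) and 3 lower (Cd207, Cd209c and Clec12a), where 40.5% of all genes passed (19.1% higher and 21.4% lower). In wild-type cells there was 1 library on each side and no test. There 5 of 9 differed at least 2-fold at 5 CPM or more (Clec4d, Clec4n, Clec4e and Clec7a higher, Clec12a lower). Cd207, Cd209c and Clec10a were under 5 CPM in both libraries and could not be counted. Of the 9840 genes that reached that level 19.6% differed, 7.92% higher and 11.7% lower. The median log2 fold change of the 9 was -0.67 in mutant cells, where that of all genes was 0.01, and -0.09 across genotypes, where that of all genes was 0.01. The 3 oxLDL libraries lay above the 3 untreated libraries for 2 members (Clec4d and Clec4n), as for 24.5% of tested genes, and below them for 2 (Cd207 and Clec12a), as for 23.3%.

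Among the uptake receptors, Mrc1, which binds mannose-bearing glycoproteins, had 448 and 204 CPM in mutant oxLDL cells, 401 and 251 CPM in untreated mutant cells, 446 CPM in wild-type oxLDL cells and 332 CPM in untreated wild-type cells. The libraries of all conditions overlapped, and the mutant pairs differed within themselves more than between treatments. Its log2 fold change across genotypes was 0.14 ± 0.32 (SE; adjusted p = 0.754, edgeR quasi-likelihood test). Clec10a, a receptor for galactose and N-acetylgalactosamine, was near the lower limit of detection, with 1.34 and 0.743 CPM in mutant oxLDL cells, 2.29 and 1.91 CPM in untreated mutant cells, 1.09 CPM in wild-type oxLDL cells and 0.921 CPM in untreated wild-type cells. Both mutant oxLDL libraries were below both untreated mutant ones, with 15 to 33 counts per library over the 6, and the log2 fold change in the mutant was -0.99 ± 0.44 (adjusted p = 0.135, edgeR quasi-likelihood test). A share of 4.44% of the 75-base stretches of Clec10a also occurs in other genes, mainly Mgl2, its neighbour on chromosome 11.

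Cd207, or langerin, is the receptor that forms Birbeck granules in Langerhans cells of the skin. It had 0 counts in both mutant oxLDL libraries and 15.5 and 19.8 CPM (176 and 280 counts) in untreated mutant cells, with 0 counts in wild-type oxLDL cells and 1.48 CPM (29 counts) in untreated wild-type cells. Every oxLDL library was at 0 and every untreated library was above it, and a count of 0 allows up to 0.122 and 0.149 CPM in the mutant pair given oxLDL, and 0.192 CPM in the wild-type library (3 counts per library, counting error only). With 3 counts over the pair of mutant oxLDL libraries as the floor, Cd207 was at least 264-fold lower with oxLDL in the mutant (adjusted p = 0.000433, edgeR quasi-likelihood test). In wild-type cells it was at least 7.74-fold lower, against a floor of 3 counts in that library.

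Cd209c, also called SIGNR2, is one of the mouse relatives of the human dendritic cell lectin DC-SIGN. It had 7.06 and 6.44 CPM in mutant oxLDL cells, against 51.8 and 53.4 CPM in untreated mutant cells. Wild-type cells had 1.15 CPM with oxLDL and 1.53 CPM untreated. The mutant pairs agreed closely within themselves and were far apart between treatments, while both wild-type libraries lay below all 4 mutant ones. In the mutant it fell 7.78-fold (log2 -2.96 ± 0.13, SE; adjusted p = 0.000215, edgeR quasi-likelihood test), ranked 35 of 12689 genes by p. The wild-type ratio was 0.75, from 18 and 30 counts. Other genes hold 4.97% of the 75-base stretches of Cd209c, so a few reads may have been shared.

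Of the receptors that pair with Fcer1g, Clec4n (Dectin-2, a receptor for fungal mannans) had 260.4 and 207 CPM in mutant oxLDL cells against 39.1 and 27.0 CPM in untreated mutant cells. In wild-type cells it had 157 CPM with oxLDL and 9.56 CPM untreated. All 3 oxLDL libraries were far above all 3 untreated ones. Clec4n rose 7.11-fold in the mutant (log2 2.83 ± 0.21, SE; adjusted p = 0.000591, edgeR quasi-likelihood test) and 9.23-fold across genotypes (log2 3.21 ± 0.29, adjusted p = 0.000479), and was 16.4-fold higher with oxLDL in the wild-type pair of libraries.

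Clec4d, known as MCL or Dectin-3, a receptor for the mycobacterial cord factor, had the highest mean per kilobase over the 6 libraries, although Clec12a was higher in all 3 untreated ones. It had 779.5 and 1003 CPM in mutant oxLDL cells against 335 and 289 CPM in untreated mutant cells, and 1259.8 CPM in wild-type oxLDL cells against 262 CPM in untreated wild-type cells. No oxLDL library overlapped an untreated one, and the wild-type oxLDL library was the highest. Clec4d rose 2.86-fold in the mutant (log2 1.51 ± 0.16, SE; adjusted p = 0.00176, edgeR quasi-likelihood test) and 3.40-fold across genotypes (log2 1.76 ± 0.20, adjusted p = 0.000968), and was 4.82-fold higher in the wild-type pair.

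Clec4e, or Mincle, which binds the same cord factor and a protein released by dead cells, had 80.5 and 47.0 CPM in mutant oxLDL cells against 43.7 and 45.4 CPM in untreated mutant cells. Wild-type cells had 29.8 CPM with oxLDL and 12.1 CPM untreated. Only 1 mutant oxLDL library stood clearly above the untreated pair. Its log2 fold change in the mutant was 0.52 ± 0.25 (SE; adjusted p = 0.158, edgeR quasi-likelihood test). Across genotypes it rose 1.70-fold (log2 0.76 ± 0.24, adjusted p = 0.0468), and this call ended in 5 of the 6 fits that left out 1 library (adjusted p up to 0.163) and with size factors from RLE scaling, DESeq2's median-of-ratios method (adjusted p = 0.0507).

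Clec7a, or Dectin-1, the receptor for fungal beta-glucan, had 36.5 and 24.8 CPM in mutant oxLDL cells against 56.5 and 41.2 CPM in untreated mutant cells. In wild-type cells the order was the opposite, at 81.5 CPM with oxLDL and 38.2 CPM untreated. The log2 fold change in the mutant was -0.67 ± 0.23 (SE; adjusted p = 0.0699, edgeR quasi-likelihood test), and the wild-type oxLDL library was 2.14-fold higher than the untreated one. Over both genotypes the value was -0.09 ± 0.38 (adjusted p = 0.879). DESeq2 put the mutant difference past the threshold (adjusted p = 0.0354), as did leaving out mutant oxLDL replicate 1 (0.00838).

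Clec12a, or MICL, an inhibitory receptor that senses uric acid crystals, had 169 and 143 CPM in mutant oxLDL cells against 745 and 785 CPM in untreated mutant cells. Wild-type cells had 178 CPM with oxLDL and 920.3 CPM untreated. The 3 oxLDL libraries lay close together and far below the 3 untreated ones. It fell 4.90-fold in the mutant (log2 -2.29 ± 0.13, SE; adjusted p = 0.000326, edgeR quasi-likelihood test) and 4.98-fold across genotypes (log2 -2.32 ± 0.11, adjusted p = 7.62e-05), where it ranked 39 of 12689 genes by p. The wild-type log2 ratio alone was -2.37.

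**Figure D2:**
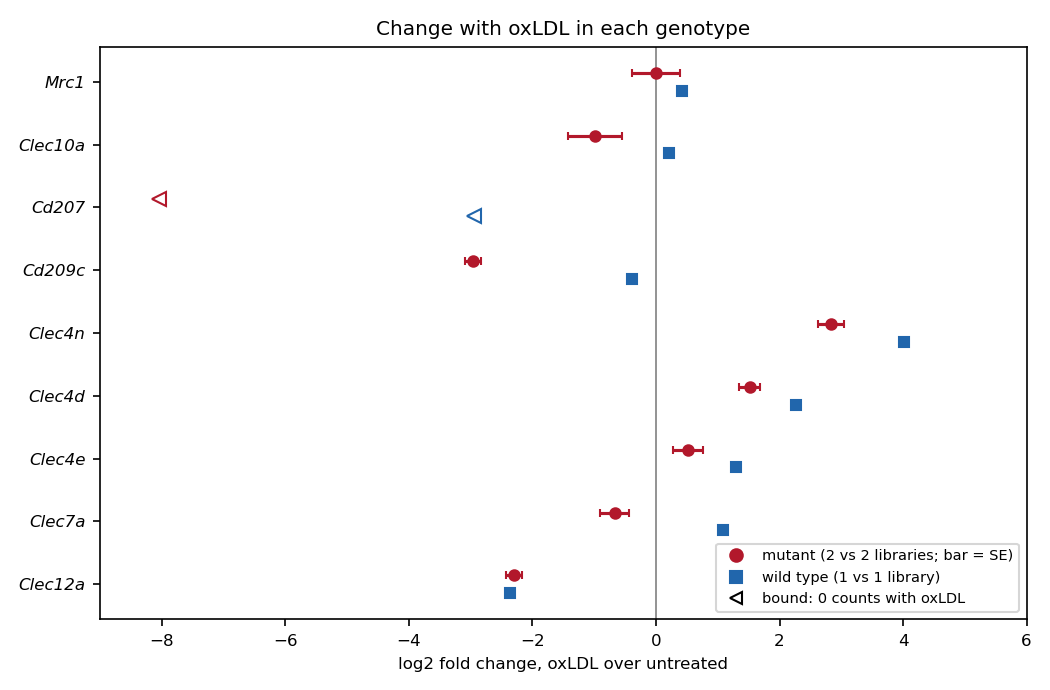
Log2 fold change of each receptor, oxLDL over untreated, in mutant cells (circles, 2 against 2 libraries, bars are SE of the edgeR fit) and in wild-type cells (squares, 1 against 1 library, no error). Open triangles mark Cd207, which had 0 counts with oxLDL, at its lower bound of fold in each genotype. Clec4n at 2.83 in the mutant is the highest tested value. Clec7a lies on opposite sides of 0 in the genotypes, as does Clec10a (-0.99 in the mutant and 0.21 in wild type), which had few counts.

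In the plot of oxLDL changes the genotypes lay on the same side of 0 for Cd207, Cd209c, Clec4n, Clec4d, Clec4e and Clec12a, and Clec12a had nearly the same value in both.

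The second comparison asks which receptors differed in the Kindlin-3 mutant. Within each treatment 2 mutant libraries were set against 1 wild-type library, so the tests hold no spread between wild-type libraries and assume that of the mutant pairs. The untreated wild-type library was also the one with high neutrophil markers. Pancreas genes were high in it and in both mutant oxLDL libraries. In untreated cells 4 of 9 genes were higher in the mutant and none lower (Cd209c, Cd207, Clec4e and Clec4n), where 7.06% of all genes passed, 4.24% higher and 2.82% lower. Across treatments 3 of 9 were higher (Cd209c, Cd207 and Clec4e) against 4.05% of all genes and 2.54% higher. With oxLDL 1 of 9, Cd209c, was higher, against 0.481% of all genes and 0.299% higher. The median log2 difference of the 9 members was 1.18 in untreated cells, 0.56 across treatments and -0.05 with oxLDL, where those of all genes were -0.01, -0.01 and 0.01. All 4 mutant libraries lay above both wild-type ones for 2 members (Cd209c and Clec4e), as for 8.49% of tested genes.

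Cd209c had the largest genotype difference of the members. In untreated cells it was 34.1-fold higher in the mutant (log2 5.09 ± 0.21, SE; adjusted p = 0.00320, edgeR quasi-likelihood test), from 2 libraries against 1 wild-type library with 30 counts. Both untreated mutant libraries were far above it, and the adjusted p reached 0.0251 when 1 of them was left out, which sets 1 library against 1. With oxLDL it was 5.84-fold higher (log2 2.55 ± 0.22, adjusted p = 0.0234), a call that ended without untreated mutant replicate 1 (0.0705) or 2 (0.0652). Across treatments the log2 difference was 4.14 ± 0.54 (adjusted p = 0.0238), which likewise ended without untreated mutant replicate 1 (0.0729) or 2 (0.116). Without the untreated wild-type library the log2 difference was 2.55, from the oxLDL libraries alone. In those the pancreas genes summed to 174 and 138 CPM in mutant cells and to 0 CPM in wild-type cells. The comparison left is therefore not free of the pancreas signal, whose part in the value was not tested.

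Cd207 was 11.9-fold higher in untreated mutant cells than in the single untreated wild-type library with 29 counts (log2 3.57 ± 0.35, SE; adjusted p = 0.0183, edgeR quasi-likelihood test). With oxLDL both genotypes were at 0 counts, so no fold exists there, and the difference across treatments (log2 3.55 ± 0.38, adjusted p = 0.0324) rests on the untreated libraries. The call in untreated cells ended without untreated mutant replicate 1 (0.0736) or 2 (0.0587). That across treatments likewise ended without replicate 1 (0.0981) or 2 (0.146), without the untreated wild-type library, which leaves no counts for Cd207 in wild type, and with the replicate block (0.0627). Of the 12 dendritic cell markers 6 were tested, 1 was called higher in the mutant across treatments and 5 did not pass. Their median log2 difference was -0.04 over all 6, and 2.54% of all genes were called higher. In untreated cells the log2 differences of those 5 were -1.55 ± 0.63 for Batf3, -0.38 ± 0.36 for Xcr1, -0.36 ± 0.74 for Itgae, -0.31 ± 0.21 for Irf8 and 3.86 ± 1.36 for Cd24a, and none passed. The marker called was Itgax, the integrin subunit CD11c, at 44.5 and 58.7 CPM in mutant oxLDL cells and 42.5 and 46.6 CPM in untreated mutant cells, against 13.7 CPM in wild-type oxLDL cells and 6.14 CPM in untreated wild-type cells (log2 2.35 ± 0.25, adjusted p = 0.0163). The 12 dendritic cell markers summed to 189 and 209.8 CPM in mutant oxLDL cells, 184 and 155 CPM in untreated mutant cells, 172 CPM in wild-type oxLDL cells and 151 CPM in untreated wild-type cells. The part of such cells in the result was not tested.

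Clec4e was 3.67-fold higher in untreated mutant cells (log2 1.88 ± 0.34, SE; adjusted p = 0.0360, edgeR quasi-likelihood test) and 2.75-fold higher across treatments (log2 1.46 ± 0.28, adjusted p = 0.0453). Both calls ended without either of the untreated mutant libraries (adjusted p between 0.0891 and 0.141). The call across treatments also ended without mutant oxLDL replicate 1 (0.0942), without the untreated wild-type library (0.215) and with the replicate block (0.0637), so that it held in 2 of 6 fits without 1 library. The value with oxLDL was 1.10 ± 0.32 (adjusted p = 0.222). Clec4n was 3.44-fold higher in untreated mutant cells (log2 1.78 ± 0.28, adjusted p = 0.0300), a call that ended without untreated mutant replicate 1 (0.0744). Its value with oxLDL was 0.58 ± 0.24 (adjusted p = 0.353) and across treatments 1.09 ± 0.30 (adjusted p = 0.0956).

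The remaining 5 members did not pass in the genotype comparisons as fitted. Across treatments the log2 differences were -0.62 ± 0.40 for Clec7a, -0.25 ± 0.33 for Mrc1, -0.23 ± 0.11 for Clec12a, -0.14 ± 0.20 for Clec4d and 0.56 ± 0.46 for Clec10a (SE; adjusted p from 0.240 to 0.706, edgeR quasi-likelihood test). For Clec4d both mutant libraries with oxLDL were below the wild-type one, and both untreated mutant libraries were above the untreated wild-type one. For Clec7a the log2 difference with oxLDL was -1.41 ± 0.27 (adjusted p = 0.108), with both mutant libraries below the wild-type one. That difference passed by DESeq2 (adjusted p = 0.00115) and by edgeR without the low-count filter (3.25e-06). It ranged from -1.72 to -1.15 in the fits that left out 1 library. With the replicate block it also passed (-1.18, adjusted p = 0.0103), and Clec7a was called higher in untreated mutant cells (0.59, 0.0327). The block gives both wild-type libraries the number of mutant replicate 1. Its genotype values therefore set wild type against the level of that replicate, although the labels state no link beyond the number.

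**Figure D3:**
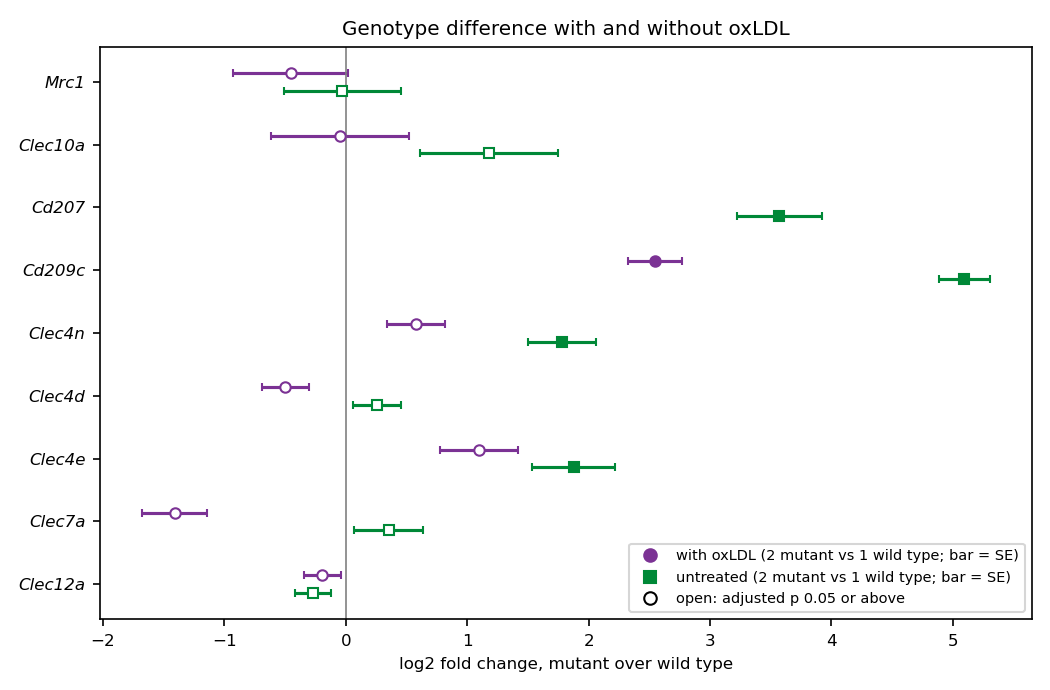
Log2 difference of each receptor, mutant over wild type, with oxLDL (circles) and in untreated cells (squares), from 2 mutant libraries against 1 wild-type library in each condition; bars are SE of the edgeR fit and filled symbols have an adjusted p under 0.05. Cd209c is filled in both conditions, at 2.55 and 5.09, and Cd207 has no value with oxLDL because all libraries were at 0 counts.

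The third comparison asks whether the response to oxLDL differed between genotypes. None of the 9 members passed the edgeR quasi-likelihood interaction test, where 0.489% of all genes passed. At an unadjusted p under 0.05 there were 4 members (Cd209c, Clec7a, Clec4n and Clec4d). Clec4d, the weakest of these 4, ranked 1080 of 12689 genes. In the same test Fermt3 (unadjusted p = 0.0448) ranked 1287 and Cd302, another lectin gene (0.0504), ranked 1401. At least 1287 and fewer than 1401 genes therefore passed that looser threshold. DESeq2 called 2 members (Cd209c and Clec7a) and 221 of all 12689 genes. The edgeR test called 3 with the replicate block or without the low-count filter (Cd209c, Clec7a and Clec4n in both) and 3 without mutant oxLDL replicate 1 (Cd209c, Clec7a and Clec4e). For Cd209c the log2 response in the mutant minus that in wild type was -2.55 ± 0.33 (SE; adjusted p = 0.0513). The values of the same fit were -2.96 in the mutant and -0.41 in wild type. For Clec7a it was -1.76 ± 0.40 (adjusted p = 0.219), with -0.67 in the mutant and 1.09 in wild type, and DESeq2 gave adjusted p values of 0.00167 for Cd209c and 0.0107 for Clec7a. Clec4n had -1.20 ± 0.36 (adjusted p = 0.315) and Clec4d -0.75 ± 0.28 (adjusted p = 0.417), and of the rest Clec12a had 0.07 ± 0.21 (adjusted p = 0.931). For Cd207 no interaction could be estimated, since its oxLDL libraries were all at 0. The pancreas genes were high in the mutant oxLDL and untreated wild-type libraries, the same libraries that an interaction sets against the others, and 10 of 12 were called in the interaction; their part in the members' values was not tested.

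Several members sit in a row on chromosome 6. RefSeq orders the genes as Clec4a1, Clec4a3, Clec4a4, Clec4b1, Clec4a2, Clec4b2, Clec4n, Clec4d and Clec4e. Along this row the Clec4a and Clec4b genes measured fell with oxLDL, while Clec4n, Clec4d and Clec4e rose across genotypes, the last with the weak call given above. Clec4a1, a receptor gene of the DCIR family, had 42.7 and 34.5 CPM in mutant oxLDL cells, 663 and 639 CPM in untreated mutant cells, 78.5 CPM in wild-type oxLDL cells and 1256 CPM in untreated wild-type cells. All oxLDL libraries were far below all untreated ones, and the wild-type library was the higher in each condition (oxLDL log2 -4.05 ± 0.12, adjusted p = 5.24e-05; mutant over wild type -0.99 ± 0.11, adjusted p = 0.0171, edgeR quasi-likelihood test). Clec4a3 (log2 -2.97 ± 0.14), Clec4a2 (-2.77 ± 0.15), Clec4a4 (-4.66 ± 0.60) and Clec4b1 (-4.81 ± 0.37) also fell across genotypes with adjusted p of at most 0.00165. Clec4b2 had 0 counts in all 6 libraries. Reads of Clec4a4 are uncertain, since 12.7% of its 75-base stretches also occur in Clec4a2 or other genes.

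**Figure D4:**
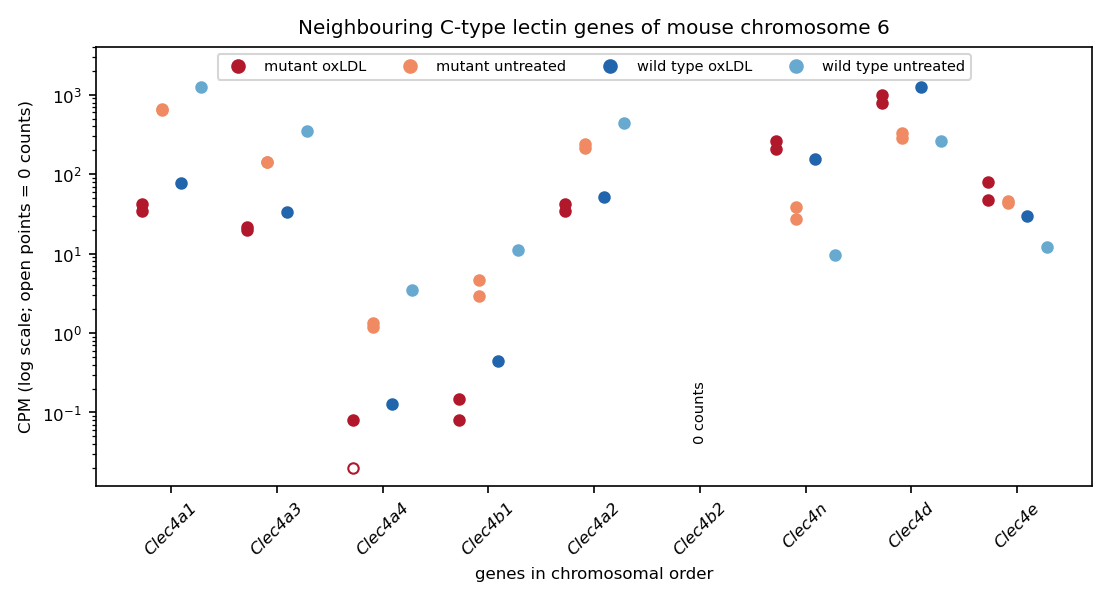
Levels in CPM (log axis) of the lectin genes in their order along mouse chromosome 6, with 1 point per library; an open point at the bottom marks 0 counts. The Clec4a and Clec4b genes are lower in oxLDL than in untreated libraries, and Clec4n and Clec4d are higher.

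The plot along the chromosome shows that the change of direction falls between Clec4a2 and Clec4n, with Clec4b2, which had no counts, between them. The order is that of the annotation on GRCm38.p6, which may not be the build used for counting.

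Of 57 other C-type lectin genes listed, 23 passed the low-count filter, and 3 of these rose with oxLDL across genotypes, 14 fell and 6 did not pass, with a median log2 fold change of -2.57 where that of all genes was 0.01. Of all tested genes 19.1% rose and 21.4% fell in this comparison. Those of smallest p, besides the row above, were Cd72, an inhibitory receptor best known from B cells, and Cd69, an early activation antigen. Cd72 had 50.9 and 57.5 CPM in mutant oxLDL cells, 796 and 905 CPM in untreated mutant cells, 177 CPM in wild-type oxLDL cells and 1647 CPM in untreated wild-type cells (log2 -3.72 ± 0.19, adjusted p = 0.000103, edgeR quasi-likelihood test). Cd69 fell by 4.86 ± 0.36 on the log2 scale (adjusted p = 0.000238). The 3 that rose, named here after their values were seen, were Ly75 (log2 1.97 ± 0.32), an uptake receptor of dendritic cells, Clec2i (1.28 ± 0.18) and Cd93 (0.54 ± 0.15).

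By genotype across treatments, 1 of the 23 other lectin genes was higher in the mutant, 4 were lower and 18 did not pass, where 2.54% of all genes were higher and 1.51% lower. The median log2 difference was 0.04, and that of all genes was -0.01. Klra17, a killer lectin-like receptor gene, had 7.30 and 4.26 CPM in mutant oxLDL cells, 4.59 and 2.76 CPM in untreated mutant cells, 0.320 CPM in wild-type oxLDL cells and 0.0511 CPM in untreated wild-type cells. All 4 mutant libraries were above both wild-type ones (log2 4.73 ± 0.58, adjusted p = 0.0215, edgeR quasi-likelihood test). Lower in the mutant were Clec4a1, Clec4a3 (log2 -1.02 ± 0.14), Cd72 (-1.34 ± 0.18) and Clec4a2 (-0.72 ± 0.14), with adjusted p from 0.0171 to 0.0491. All 5 of these genotype calls ended without either of the untreated mutant libraries (adjusted p from 0.0600 to 0.164). All but that of Cd72 ended without the untreated wild-type library (up to 0.280), and that of Clec4a2 without mutant oxLDL replicate 1 (0.108).

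Of the signalling chain shared by the activating receptors, Fcer1g, Syk and Card9 fell with oxLDL across genotypes by less than 1 on the log2 scale. Fcer1g had 604 and 569.9 CPM in mutant oxLDL cells, 795 and 788 CPM in untreated mutant cells, 621 CPM in wild-type oxLDL cells and 1253 CPM in untreated wild-type cells, so that every oxLDL library was below every untreated one (log2 -0.63 ± 0.14, adjusted p = 0.0135, edgeR quasi-likelihood test). Syk fell by 0.54 ± 0.13 (adjusted p = 0.0187) and Card9 by 0.43 ± 0.13 (adjusted p = 0.0355) on the log2 scale. The call for Syk ended without untreated mutant replicate 2 (adjusted p = 0.0530), and that for Card9 ended in 5 of 6 fits without 1 library (adjusted p up to 0.139). Tyrobp, a related adaptor chain, had a log2 fold change of 0.0048 ± 0.10 (adjusted p = 0.976).

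Among all 46 signalling genes listed, 6 rose with oxLDL across genotypes, 24 fell and 16 did not pass (median log2 -0.45, all genes 0.01), where 19.1% of all genes rose and 21.4% fell. Those of smallest p were Ptpn6, the phosphatase recruited by inhibitory receptors (log2 -1.92 ± 0.10, adjusted p = 0.000105, edgeR quasi-likelihood test), the kinase Lyn (-1.90 ± 0.12), the adaptors Blnk (-1.66 ± 0.10) and Pik3ap1 (-1.99 ± 0.13), and the transcription factor Nfatc2 (-2.40 ± 0.18), all with adjusted p of at most 0.000260. Ptpn6 had 215 and 216 CPM in mutant oxLDL cells, 739.7 and 794 CPM in untreated mutant cells, 263 CPM in wild-type oxLDL cells and 1125 CPM in untreated wild-type cells, so that its groups did not overlap. A share of 10.1% of the 75-base stretches of Lyn occurs in other genes, so its counts are uncertain. By genotype, Src was higher in the mutant (log2 1.35 ± 0.23, adjusted p = 0.0386), Blnk (-0.54 ± 0.10, adjusted p = 0.0480) and Pik3ap1 (-0.72 ± 0.13, adjusted p = 0.0447) were lower, and 43 of 46 did not pass, where 4.05% of all genes passed. These 3 calls ended without either of the untreated mutant libraries, without mutant oxLDL replicate 1 and without the untreated wild-type library (adjusted p from 0.0610 to 0.258). Blnk was also lost without mutant oxLDL replicate 2 (0.0757) and Pik3ap1 without the wild-type oxLDL library (0.0950), so that Src held in 2 of 6 such fits and the others in 1.

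Of 25 genes listed as outputs of this signalling, mostly NF-kB and NFAT targets, 19 passed the low-count filter. With oxLDL across genotypes 1 rose, 15 fell and 3 did not pass (median log2 -2.88, all genes 0.01), where 19.1% of all genes rose and 21.4% fell. Nfkbiz, a regulator of secondary NF-kB targets, had 8.35 and 8.12 CPM in mutant oxLDL cells, 274 and 414 CPM in untreated mutant cells, 8.63 CPM in wild-type oxLDL cells and 624 CPM in untreated wild-type cells (log2 -5.64 ± 0.25, adjusted p = 7.62e-05, edgeR quasi-likelihood test). The oxLDL libraries were alike and far below every untreated one. Lower too were Nfkbia, the NF-kB inhibitor (log2 -2.51 ± 0.15), and the cytokines Tnf (-2.88 ± 0.23), Il10 (-5.17 ± 0.42) and Il1b (-5.44 ± 0.75), as well as the early response factor Egr1 (-3.04 ± 0.31), with adjusted p of at most 0.00212. The gene that rose, named after its value was seen, was Il1a (2.96 ± 0.47), a cytokine stored in cells. By genotype across treatments edgeR called none of the 19 (6 at an unadjusted p under 0.05). The weakest of these 6 ranked 2334 of 12689 genes. DESeq2 called 3 of the 19 and 1513 of all 12689 genes.

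For each member the 2 genes of most like pattern were taken by the Euclidean distance, in log2 units, between their log2 CPM over the 6 libraries, each centred on its own mean. Clec4d lay nearest to Osgin1, an oxidative stress response gene, and Cbr3, a carbonyl reductase, at distances of 0.16 and 0.27. Clec12a lay nearest to Fam49a (0.21) and to Actb, which encodes beta-actin (0.30). For Clec4n the nearest were Tnfrsf26 (0.57) and Vegfa, the vascular growth factor (0.73). Clec10a lay nearest to Avpi1 (0.20) and Blm (0.32), Clec4e to Ttc39a (0.32) and Armcx2 (0.34), Mrc1 to Hip1 (0.36) and Thbs1 (0.39), and Clec7a to 4632427E13Rik (0.38) and Tmc8 (0.50). Cd209c had no gene closer than 1.06, at which lay Dbhos, followed by 4930519F09Rik at 1.10. Cd207 had the largest distances, with Cxcl10, a chemokine gene, at 1.44 and Nox1, an oxidase gene, at 2.03. This distance also depends on the size of a gene's own change. Pearson correlations with the same like genes were 0.984 and 0.967 for Cd207 and 0.993 and 0.994 for Cd209c. For Mrc1, with smaller distances, they were 0.967 and 0.929. Osgin1 followed Clec4d library by library, at 14.4 and 18.6 CPM in mutant oxLDL cells, 6.26 and 5.59 CPM in untreated mutant cells, 25.8 CPM in wild-type oxLDL cells and 5.32 CPM in untreated wild-type cells. Cxcl10 had 0.162 and 0 CPM in mutant oxLDL cells, 16.9 and 15.2 CPM in untreated mutant cells, 0 CPM in wild-type oxLDL cells and 3.02 CPM in untreated wild-type cells.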

How the data were processed

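RNA-seq values of 6 mouse macrophage libraries were analysed. Bowtie2 2.1.0, RSEM 1.2.15 and edgeR are named in the submitters' processing notes. The authors deposited the expected counts that RSEM estimates for each gene, and a signal per gene normalised by TMM. A human build, hg19, is listed although 23934 of 24054 symbols occur in mouse gene tables, so the true build is unknown and positions are those of RefSeq on GRCm38.p6. In the deposited signal 100% of values were whole multiples of 1 read (tolerance 1e-06), and at least 99.89% of genes per library had the same number of reads as the rounded counts.

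Expected counts were rounded. The filterByExpr rule of edgeR kept 12689 of 17143 genes with a count for the quasi-likelihood F-test (edgeR 4.0.16, R 4.3.3, TMM scaling, Benjamini-Hochberg adjustment over all tested genes, threshold 0.05). Contrasts of 4 group means tested oxLDL within the mutant, genotype within each treatment and the interaction, and an additive model tested each factor across the other. Lone wild-type libraries were assumed to vary like the mutant pairs. Standard errors are the log2 fold change over the square root of F. For oxLDL in wild type, log2 ratios used a prior count of 2. The scripts were tested on simulated data. Between replicates of the mutant the variance over genes was a median of 6.80 (oxLDL) and 4.48 (untreated) times the Poisson variance. The stranded kit does not show how strand was used in counting, so overlap with antisense genes could not be judged.

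All members are named, and of the other lectin, signalling and output lists at most 6 genes of smallest p for oxLDL across genotypes, those called by genotype and the chain Fcer1g, Tyrobp, Syk and Card9; a gene of the signalling list that this rule names is not reported here. The members and lists were chosen with earlier results of these data known. Alternatives were DESeq2 1.42.0, RLE scaling, no filter, the replicate number as a block, leaving out each library, only the 4 mutant libraries and, added after seeing the data, the recovered reads.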

Additional observations from a re-analysis of the deposited data

How the results depend on the processing

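The number of members called was 5 to 6 for oxLDL in the mutant and 5 to 6 across genotypes in every fit that left out 1 library, and within 1.5 times the main count under every other alternative run. Calls by genotype moved more. Across treatments (3 members) the count was 1 with the replicate block and 0 to 4 without 1 library; in untreated cells (4 members) it was 1 to 4 without 1 library. With oxLDL (1 member) it was 3 by DESeq2, 4 without the low-count filter, 3 with the replicate block and 0 to 3 without 1 library. For the interaction (0 members) it was 2 by DESeq2, 3 without the filter, 3 with the replicate block and 0 to 3 without 1 library. In the block fit both wild-type libraries carry the number of mutant replicate 1, and the labels state no link beyond that number. Its genotype values therefore set wild type against the level of mutant replicate 1. Among the mutant libraries the number joins 2 pairs, whose deviations correlated at r = 0.204 over 12689 genes. With 2 pairs this value cannot decide whether the libraries were paired, and the labels give only the shared number. The block is therefore given as an alternative. With it, Cd207 (adjusted p = 0.0627) and Clec4e (0.0637) were no longer called by genotype across treatments, nor Clec4e by oxLDL across genotypes (0.0654). Clec7a passed with the block for oxLDL in the mutant (log2 -0.68, 0.00262), for genotype in untreated (0.59, 0.0327) and in oxLDL cells (-1.18, 0.0103) and for the interaction (-1.77, 0.0102). Clec4n passed with the block for genotype with oxLDL (0.78, 0.0322) and, with Cd209c (-2.55, 0.0441), for the interaction (-1.19, 0.0433). For values that changed sign, neither the main value nor the changed one was called. For oxLDL in the mutant, Mrc1 was -0.016 by DESeq2, -0.015 with RLE scaling, -0.069 with the block, -0.0060 with only the mutant libraries and -0.68 to 0.46 without 1 library. Tyrobp across genotypes was -0.012 by DESeq2 and with RLE scaling and -0.046 to 0.096 without 1 library. With the block Mrc1 by genotype was 0.13 across treatments and 0.39 in untreated cells, and Clec10a with oxLDL 0.18. Without 1 library, oxLDL across genotypes ranged from -0.19 to 0.45 for Mrc1 and from -0.67 to 0.26 for Clec7a. Genotype across treatments then ranged from -0.51 to -0.0040 for Mrc1, -0.49 to 0.25 for Clec4d, -1.40 to 0.35 for Clec7a, -0.041 to 1.18 for Clec10a, -0.28 to 0.099 for Tnf and -0.16 to 0.16 for Card9. Genotype in untreated cells ranged from -0.42 to 0.27 for Mrc1, and in oxLDL cells from -1.13 to 0.015 for Mrc1 and -0.54 to 0.31 for Clec10a. The interaction ranged from -1.10 to 0.033 for Mrc1 and -0.057 to 0.19 for Clec12a. The cause was not tested. Over all genes the calls by genotype across treatments numbered 514, against 1513 by DESeq2, 1387 without the filter, 344 with the block and 8 to 877 without 1 library. In untreated cells they numbered 896, against 2435 without the filter, 1870 with the block and 80 to 1822 without 1 library. With oxLDL there were 61, against 391, 974, 462 and 5 to 473, and for the interaction 62, against 221, 546, 162 and 19 to 246, by DESeq2, without the filter, with the block and without 1 library. For oxLDL, 4515 genes in the mutant became 2626 without untreated mutant replicate 2, and 1926 in wild type became 3634 without the CPM minimum and 2946 by an edgeR fit that pooled the spread, which called 4 members. Reads recovered from the deposited signal gave 4515 calls for oxLDL in the mutant and 512 for genotype across treatments. Wild-type responses rest on 1 library a side, and genes near 1 CPM, such as Clec10a, on 15 to 33 counts.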

Other observations

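Olr1, or LOX-1, is a C-type lectin-like receptor known for binding oxLDL, and it was named here after its values were seen. It had 0.0811 and 0 CPM in mutant oxLDL cells, 2.47 and 5.17 CPM in untreated mutant cells, 0.0639 CPM in wild-type oxLDL cells and 0.256 CPM in untreated wild-type cells. Those values stand for 2, 0, 28, 73, 1 and 5 counts, so that only the untreated mutant libraries carried more than a few reads. With oxLDL it was lower across genotypes (log2 -5.54 ± 0.93, SE; adjusted p = 0.00442, edgeR quasi-likelihood test). The log2 difference between mutant and wild type in untreated cells was 3.87 ± 0.92 (adjusted p = 0.0620).

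Mrc1 and Clec10a are often used as markers of alternative macrophage activation, a state induced by interleukin 4. Of 19 other genes listed for that state, 13 passed the low-count filter, and with oxLDL across genotypes 1 rose, 5 fell and 7 did not pass (median log2 -0.82, all genes 0.01), where 40.5% of all genes passed, 19.1% higher and 21.4% lower. The genes called, named after their values were seen, were Cd36, a scavenger receptor (log2 0.54 ± 0.17, adjusted p = 0.0397, edgeR quasi-likelihood test), and, lower with oxLDL, Fcrls (-3.31 ± 0.24), Folr2 (-2.11 ± 0.18), Pdcd1lg2 (-2.13 ± 0.49), Stab1 (-1.17 ± 0.15) and Il4ra, the interleukin 4 receptor chain (-1.03 ± 0.14). Fcrls had 154 and 186 CPM in mutant oxLDL cells, 1138 and 1871 CPM in untreated mutant cells, 282 CPM in wild-type oxLDL cells and 3477 CPM in untreated wild-type cells. Every oxLDL library was below every untreated one. By genotype across treatments 2 of the 13 were lower in the mutant, Chil3 (log2 -4.80 ± 0.78, adjusted p = 0.0361) and Folr2 (-0.93 ± 0.18, adjusted p = 0.0480), and 11 did not pass, where 1.51% of all genes were lower. Whether these 2 calls hold without 1 library was not tested. Chil3 was low in wild type, at 1.02 CPM with oxLDL and 4.40 CPM untreated. The untreated wild-type library also had the highest sum of neutrophil markers (45.2 CPM), whose part was not tested. Arg1, a defining gene of that state, had at most 1 count in any library.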
